A study of Mus musculus with 8 samples.

Results

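Expression of 10 genes that make, conjugate, take up and sense bile acids was followed from donor bone marrow to donor-derived hepatocytes: Cyp7a1, Cyp7b1, Cyp8b1, Cyp27a1, Slc27a5, Baat, Slc10a1, Slco1b2, Nr1h4 and Nr0b2. The rule that chose them names the genes and applies no measured value, but the choice was made with earlier results of these data known. All 10 were found by gene symbol among the 63329 gene names of the arrays. RNA of mouse cells was hybridised to 8 one-colour Agilent arrays, a pair for each of 4 groups. Lin- BM cells (L3 and L4) were marrow cells depleted of lineage-positive cells by negative selection, from young adult female mice of the line C57Bl6/J-Tg(UBCGFP) 30Scha/J, in which the ubiquitin C promoter drives eGFP in all tissues. BM-derived hepatocytes were eGFP+ cells sorted from the liver 1 month (B1 and B2) or 5 months (G1 and G3) after such Lin- cells had been given by tail vein to young adult male hemophilia A mice of mixed background with the F8tm1Kaz allele, whose livers had been injured with acetaminophen. Primary hepatocytes (H2 and H4) served as the positive control, and their line, age and treatment are not given in the sources used here. Livers were perfused with collagenase and hepatocytes were collected by slow centrifugation. Cells of several mice were pooled for each experiment, so the spread between arrays is that between pools. The eGFP sort selects cells of donor origin and does not by itself select a cell type, and a sort on eGFP cannot tell a converted cell from a cell fused with a host hepatocyte. The study examined both points separately, by albumin staining and by X and Y chromosome probes on sorted cells.

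Bile acids are made from cholesterol in hepatocytes. In the classic route Cyp7a1 sets the rate and Cyp8b1 decides how much cholic acid is made, whereas Cyp27a1 and Cyp7b1 open the alternative route. Slc27a5 and Baat then join the acids to taurine or glycine, Slc10a1 (NTCP) and Slco1b2 (OATP1B2) return them from portal blood into the hepatocyte, and Nr1h4 (FXR) is the nuclear receptor that senses them and induces Nr0b2 (SHP), a corepressor known to repress Cyp7a1 and Cyp8b1.

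Slide 1 held the Lin- and 1-month arrays, and slide 2, of another array design and scanned separately, held the primary and 5-month arrays. Comparisons within a slide used all probes. Comparisons across slides used the 13991 probes of identical sequence on both designs, and there group and slide cannot be told apart. For 9 of the 10 genes such a probe existed. Nr1h4 was the exception. A level is given throughout as the log2 of the background-subtracted signal minus the 75th percentile of its array, so that a difference of 1 is a doubling, and levels of different probes are not set against each other. A probe is called well above background where the scanner software marked it so. The share of spots flagged in this way ran from 47.7% to 58.6% per array, with 0 saturated spots. In signal units the 75th percentile was 75 and 88.7 on the 1-month arrays, dimmer than the 103.4 to 192.1 of the others. A gene was called at a Benjamini-Hochberg adjusted p under 0.05 in limma with a log2 difference beyond 0.6. All 8 hepatocyte markers (albumin and transthyretin among them) were well above background on all 6 hepatocyte arrays, against 2 of 8 on the Lin- arrays. The 8 progenitor markers had a summed linear level of 746.7 to 796.3 on the Lin- arrays and 3.78 to 6.48 on the 1-month arrays. Of these 8, all were well above background on L3 and L4, 5 on B1 and 6 on B2. On slide 2, 5 were so on H2, 3 on H4, 7 on G1 and 5 on G3. The cells were measured in bulk, where fewer cells of a type and less RNA per cell cannot be told apart.

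The probe sequences that read the genes on both slides show what was measured. The 60-base probes of 4 genes on which later comparisons turn follow, with mm9 coordinates from the array files.
Cyp8b1, chr9:121824595-121824654, minus strand: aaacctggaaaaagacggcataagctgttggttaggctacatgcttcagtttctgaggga
Cyp27a1, chr1:74782203-74782262, plus strand: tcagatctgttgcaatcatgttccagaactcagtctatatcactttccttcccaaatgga
Slc10a1, chr12:82061470-82061529, minus strand: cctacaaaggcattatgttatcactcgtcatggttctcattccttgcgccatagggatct
Nr0b2, chr4:133109694-133109753, plus strand: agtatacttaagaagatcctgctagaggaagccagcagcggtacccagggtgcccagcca
The Cyp27a1 probe was printed in 10 spots on each slide 2 array, which were averaged, and the Slc10a1 probe is the one whose values differed from those of another Slc10a1 probe, as described below.

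All 10 genes were called higher in 1-month hepatocytes than in Lin- BM cells, as were 28.8% of all genes tested. The bases before the starts of the 10 genes were searched for short binding motifs. These were motifs of nuclear receptors and of HNF1, factors known to act on bile acid genes in liver. RefSeq windows (GRCm38.p6) were found for 6 of the 10 genes, in 7 entries. Cyp7a1, Cyp7b1, Slc27a5 and Baat were not matched. Both strands of the 250 bases before the start were searched. The nuclear receptor half-site AGGTCA was present for 3 genes (Slc10a1, in 1 of its entries, Slco1b2 and Nr1h4), against 14.0% of all 32851 windows. The HNF1 half-site GTTAAT was present for Slco1b2 and Nr1h4, against 6.43% of windows. The extended nuclear receptor site CAAGGTCA and the inverted repeat IR1, both of which contain the nuclear receptor half-site, were present for 0 of the 6 genes, against 1.33% and 0.00609% of windows. The windows of the FXR target Nr0b2, of Slco1b2, which had the highest bound in the comparisons with Lin- cells, and of the receptor gene Nr1h4 are shown, with matches to both half-sites in capitals (that of nuclear receptors lies on the opposite strand in each and so reads TGACCT).
Nr0b2, chr4:133553126-133553375, plus strand: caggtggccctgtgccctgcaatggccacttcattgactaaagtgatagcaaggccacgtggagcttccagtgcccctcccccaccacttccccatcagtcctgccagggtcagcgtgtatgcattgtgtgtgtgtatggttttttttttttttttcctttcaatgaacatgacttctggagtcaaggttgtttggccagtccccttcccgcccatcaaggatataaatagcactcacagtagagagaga
Slco1b2, chr6:141629268-141629451, plus strand: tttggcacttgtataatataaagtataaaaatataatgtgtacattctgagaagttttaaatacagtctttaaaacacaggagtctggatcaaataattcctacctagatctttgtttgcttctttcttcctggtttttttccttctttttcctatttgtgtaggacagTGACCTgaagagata
Nr1h4, chr10:89506659-89506908, minus strand: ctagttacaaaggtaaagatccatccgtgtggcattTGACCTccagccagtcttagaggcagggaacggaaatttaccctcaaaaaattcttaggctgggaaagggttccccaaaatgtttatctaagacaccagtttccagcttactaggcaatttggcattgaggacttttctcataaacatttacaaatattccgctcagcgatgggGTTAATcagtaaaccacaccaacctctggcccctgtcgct
In the Slco1b2 window the nuclear receptor half-site lies 81 to 76 bases before the start site that the table uses. Its HNF1 half-site, 66 to 61 bases before that site, begins at the first base of the annotated gene and is not printed, since the sequence was ended at the gene's first base. In the Nr1h4 window the nuclear receptor half-site lies 214 to 209 and the HNF1 half-site 40 to 35 bases before a start that lies inside the gene (chr10:89454234-89533645). The Nr0b2 window holds no match to these letters, which says nothing of binding there. The counts above are of genes, while the shares are of windows. A part of these motifs in the rises was not tested.

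The comparison of 1-month hepatocytes with Lin- BM cells asked whether donor cells in the injured liver had gained the bile acid genes. All 10 genes were called higher at 1 month, against 28.8% of the 28522 genes tested called higher and 26.5% called lower. For 6 of the 10 neither Lin- array was well above background, so that their rise has only a lower bound, and their fitted differences rest on dim signals. The fitted log2 differences had a median of 9.71, or 8.73 with these 6 genes set at their bounds, against 0.07 over all genes. The lowest was that of Nr0b2, 5.99, which was measured on L3. For each gene both 1-month arrays lay above both Lin- arrays by far more than the spread within either group. Groups that did not overlap were common: of all 28522 genes, 12297 were higher and 11106 lower at 1 month in this way.

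**Figure D1:**
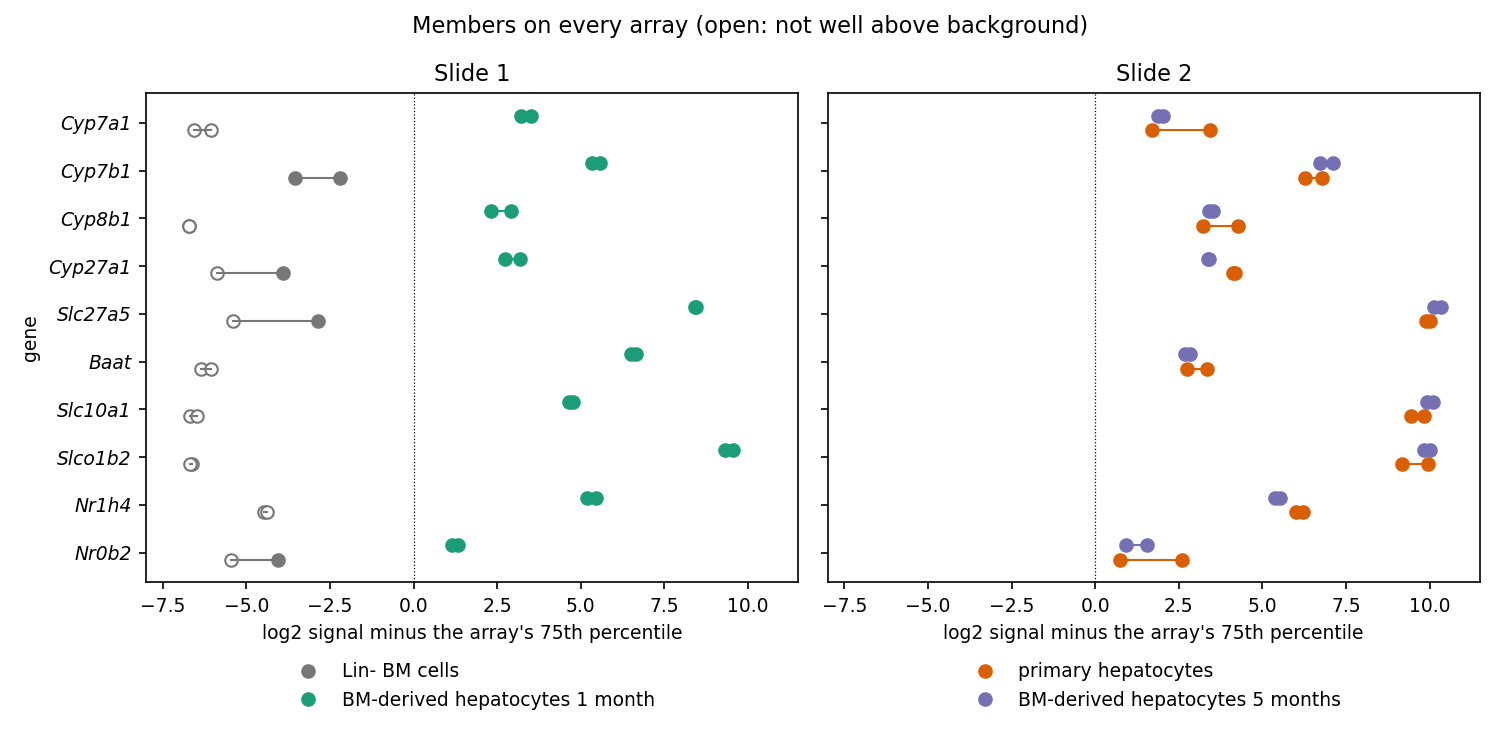
Level of each gene on every array (x axis, log2 signal minus the 75th percentile of the array, brightest probe of the gene on that slide), with slide 1 on the left and slide 2 on the right. Points are single arrays, lines join the 2 arrays of a group and open points are not well above background. On slide 1 every 1-month point lies above 0 and every Lin- point below 0, and on slide 2 the groups lie close together.

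Among the synthesis enzymes, Cyp7a1 (chr4:6265612-6275632, GRCm38.p6 for this and the other genes) had levels of -6.07 and -6.56 on L3 and L4 and of 3.22 and 3.496 on B1 and B2. Neither Lin- array was well above background, so its rise is a bound: at least 220-fold higher (fitted log2 difference 9.67 ± 0.31 SE, adjusted p = 9.1e-05). A second Cyp7a1 probe, likewise not well above background on L3 or L4, was called higher too. Cyp8b1, the sterol 12α-hydroxylase (chr9:121914356-121916305), stood at -6.73 and -6.72 in Lin- cells, neither array well above background, and at 2.32 and 2.91 at 1 month. This was at least 131-fold higher (adjusted p = 0.000103).

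Cyp7b1, the oxysterol 7α-hydroxylase (chr3:18071944-18243890), was the exception in the marrow, since it was well above background on both Lin- arrays. Its levels were -2.20 and -3.56 on L3 and L4 and 5.33 and 5.57 on B1 and B2, a 322-fold rise (log2 8.33 ± 0.51, adjusted p = 0.000471). Cyp27a1, the mitochondrial sterol 27-hydroxylase (chr1:74713148-74737897), had levels of -3.91 and -5.89 in Lin- cells, of which the first, on L3, was well above background, and of 3.19 and 2.74 at 1 month. It rose by 7.86 ± 0.70 (adjusted p = 0.00131). For both genes of the alternative route the Lin- arrays differed widely, 2.56-fold for Cyp7b1 and 3.96-fold for Cyp27a1, with L3 the higher.

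Both conjugation genes rose. Slc27a5, the bile acid CoA ligase (chr7:12988346-12998192), had levels of -2.86 on L3, well above background, and -5.40 on L4, not so, against 8.42 and 8.43 on B1 and B2, a difference of 12.56 ± 0.85 (adjusted p = 0.000629). Baat, the amino acid N-acyltransferase (chr4:49489416-49507915), was not well above background on L3 or L4 (-6.37 and -6.06) and stood at 6.64 and 6.50 at 1 month, at least 2040-fold higher (adjusted p = 6.27e-05). The second Baat probe, which is also on slide 2, was called higher too and was not well above background on either Lin- array.

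For the uptake transporters neither Lin- array was well above background. Slc10a1 (chr12:80953185-80968705) went from -6.70 and -6.48 to 4.76 and 4.64, at least 558-fold higher (adjusted p = 6.29e-05). Slco1b2 (chr6:141629452-141686646) went from -6.62 and -6.67 to 9.54 and 9.31, at least 14800-fold higher (adjusted p = 6.06e-05).

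Of the regulators, Nr1h4 stood at -4.46 and -4.37 in Lin- cells, neither well above background, and at 5.45 and 5.20 at 1 month. It was at least 848-fold higher (adjusted p = 6.83e-05). Nr0b2 (chr4:133553376-133556686) had levels of -4.07 and -5.46 on L3 and L4, the first well above background, and of 1.32 and 1.14 on B1 and B2. The rise of Nr0b2, 5.99 ± 0.51 or 63.6-fold, had an adjusted p of 0.0012. L3 was higher than L4 for Slc27a5, Cyp27a1, Nr0b2 and Cyp7b1, by 1.36 to 2.54 on the log2 scale, whereas the other 6 genes differed by at most 0.49 between L3 and L4. Over all genes, 13.4% differed by more than 1 between these arrays.

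A wider list of 42 bile acid genes was set beside the 10. Of these, 38 were tested on slide 1, 34 were called higher at 1 month than in Lin- BM cells and 1 lower, with a median fitted difference of 6.52, or 6.21 with the 10 genes that have only a bound set at it. Over all 28522 genes tested, 28.8% were called higher and 26.5% lower, with a median difference of 0.07. All 12 further synthesis genes tested were called higher, as were 12 of 13 transporters and 10 of 13 regulators. The 4 largest fitted differences among those called higher were those of Akr1c6, a hydroxysteroid dehydrogenase of a family with close relatives (14.31 ± 0.28, adjusted p = 6.06e-05), Abcb11, the canalicular bile salt export pump (12.88 ± 0.68, adjusted p = 0.000329), Abcg5, a half-transporter for sterols (11.96 ± 0.71, adjusted p = 0.000446), and Cyp2c70, which makes muricholic acid in mice (11.03 ± 0.26, adjusted p = 6.29e-05). For Abcg5, with neither Lin- array well above background, the bound was at least 1690-fold, and its place among the 4 is not settled. Akr1c6 and Cyp2c70 were well above background on both Lin- arrays, and Abcb11 on 1 of 2.

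Vdr, the vitamin D receptor, which also binds lithocholic acid, was the gene called lower: neither 1-month array was well above background for it, and it was at least 7.67-fold lower than in Lin- cells (adjusted p = 0.00269). The 3 genes that were not called were Foxo1 (-0.07, adjusted p = 0.919), a transcription factor, Mafg (0.95, adjusted p = 0.0588), a repressor induced by FXR, and Abcc4 (-0.32, adjusted p = 0.399), a basolateral export pump. Ch25h, Fgf15, Gpbar1 and Slc51a had no probe well above background on both arrays of a slide 1 group. Kupffer cell markers, 6 of 6 well above background on B1 and B2, had a summed level of 9.14 and 39.2 there against 1.07 and 3.53 in Lin- cells, with 4 of 6 called higher at 1 month. All 5 sinusoidal endothelial markers were called higher, and their summed level was 53.8 and 57.5 on B1 and B2 against 0.70 and 1.08 on L3 and L4. Of 4 stellate cell markers tested, Lrat, Reln and Rgs5 were called higher and Col1a1 lower. These marker counts stand beside 28.8% of all genes called higher and 26.5% called lower. The part of Kupffer, sinusoidal endothelial and stellate cells in the rises was not tested.

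**Figure D2:**
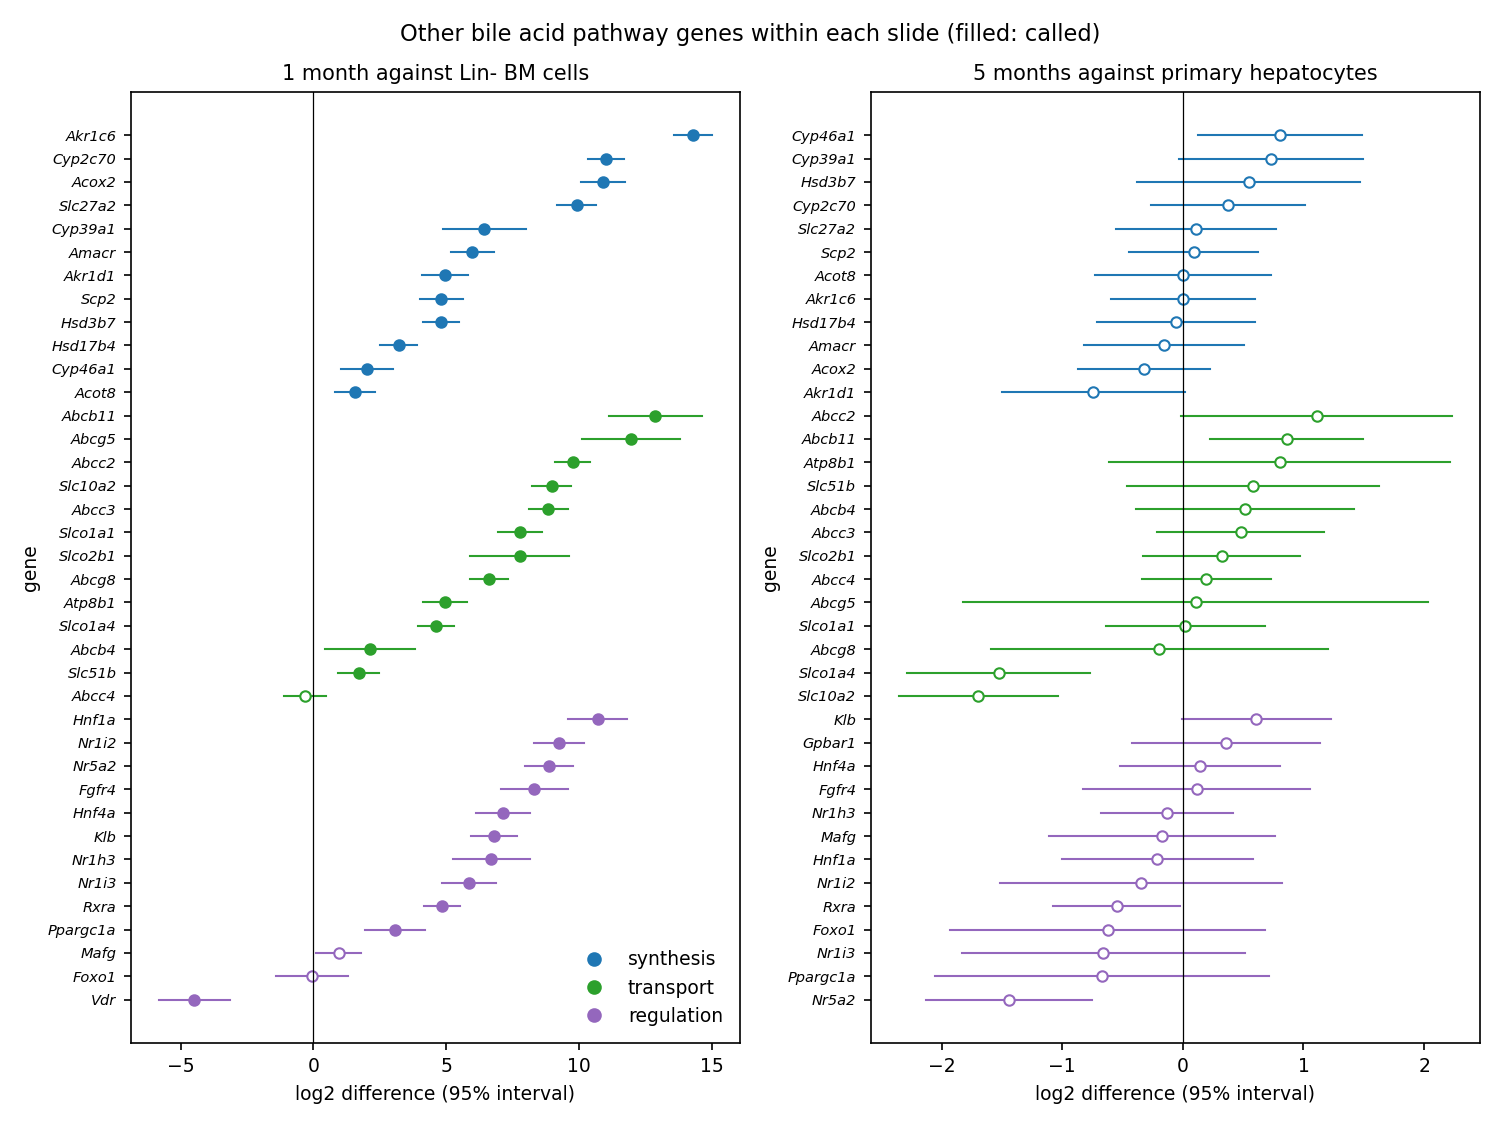
Log2 difference of each of the 38 further bile acid genes tested within each slide (x axis, with its 95% interval), for 1 month against Lin- BM cells on the left and 5 months against primary hepatocytes on the right. Colours give the role, and filled points were called. On the left 34 genes lie to the right of 0 as filled points and 1 to the left, and on the right 0 points are filled.

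The comparison of 5-month hepatocytes with primary hepatocytes asked how near to resident hepatocytes the donor cells had come. Of the 10 genes 0 were called in either direction by limma, in a comparison in which 0.366% of 19929 genes were called higher and 0.186% lower. At an unadjusted p under 0.05 limma gave 2 of the 10, Cyp27a1 and Nr1h4, and 14.1% of all genes. The test that the methods name called 2 of the 10 lower before adjustment, beside 747 higher and 616 lower of all 19929 genes. After adjustment that test called 0 of the 10 and 0 of all genes. The median difference of the 10 was -0.28, against 0.04 over all genes. An absence of calls does not show equal levels, and the intervals of the differences are therefore given below.

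Cyp27a1 stood at 4.13 and 4.19 on H2 and H4 and at 3.37 and 3.41 on G1 and G3. Both 5-month arrays lay below both primary arrays, by 0.77 on average (1.71-fold, 95% interval of the log2 difference -1.30 to -0.25, adjusted p = 0.238). Nr1h4 showed the same order, with 6.002 and 6.20 in primary and 5.37 and 5.54 in 5-month hepatocytes (1.57-fold, difference -0.65, interval -1.23 to -0.07, adjusted p = 0.315). Rxra, which encodes the partner with which FXR binds DNA and was named after its values were seen, differed by -0.55 (interval -1.08 to -0.02, adjusted p = 0.343).

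By the brightest probe, Slc27a5 and Slc10a1 were the 2 genes of which both 5-month arrays lay above both primary arrays. Slc27a5 had levels of 9.89 and 10.01 on H2 and H4 and of 10.14 and 10.34 on G1 and G3 (difference 0.29, interval -0.27 to 0.85). By its other probe the groups overlapped, with 8.74 and 8.92 on H2 and H4 and 8.90 and 9.01 on G1 and G3 (difference 0.13). By the brightest probes, 2 of the 10 genes were higher and 2 lower with groups that did not overlap, beside 25.2% and 22.7% of all genes tested, shares close to those of the 10.

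The 2 probes of Slc10a1 disagreed. By the brighter one, the level was 9.44 and 9.84 in primary and 10.10 and 9.93 in 5-month hepatocytes (difference 0.38, interval -0.28 to 1.04, adjusted p = 0.564). By the probe printed above, it was 5.20 and 4.50 in primary and 3.25 and 4.12 in 5-month hepatocytes, a difference of -1.17 (interval -2.29 to -0.04, adjusted p = 0.327 over 27020 probes). The groups did not overlap by either probe, and the directions were opposite. No direction can therefore be given for Slc10a1 at 5 months on slide 2.

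**Figure D3:**
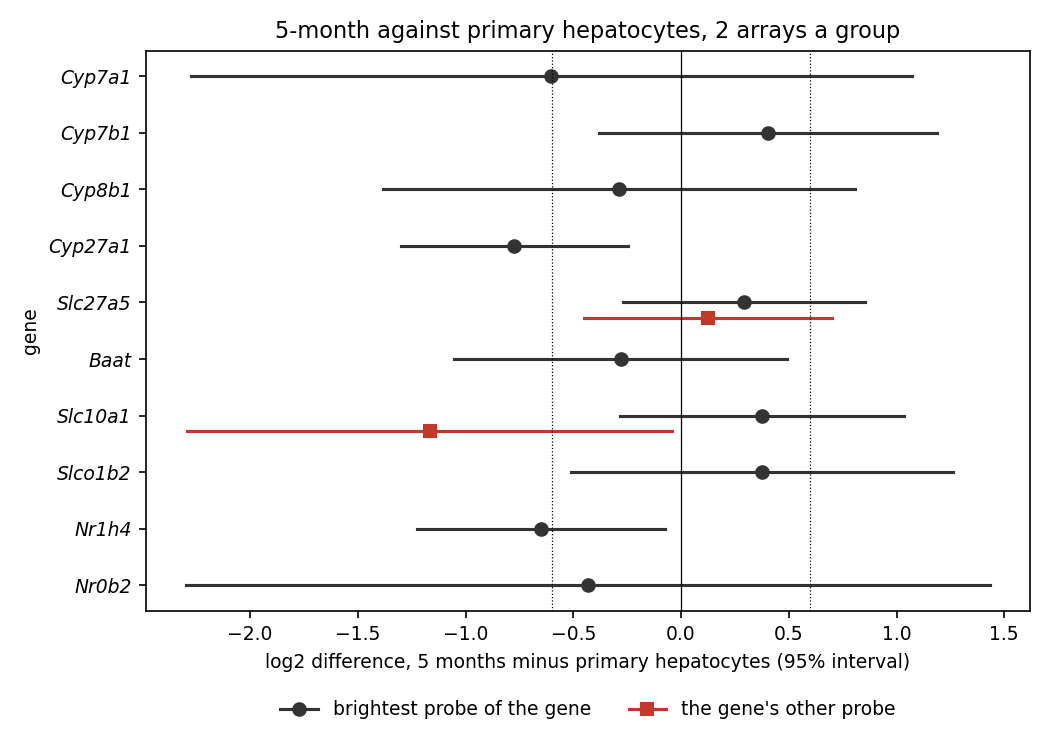
Log2 difference between 5-month and primary hepatocytes for the 10 genes (x axis, 5 months minus primary, 2 arrays a group). Bars are 95% intervals, circles the brightest probe of each gene, squares the other probe where there is one, and dotted lines mark 0.6 in either direction. The intervals of Cyp27a1 and Nr1h4 lie below 0, those of the other 8 genes include 0 by the brightest probe, and the 2 probes of Slc10a1 lie on opposite sides of 0.

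For 3 of the 10 genes the primary arrays themselves lay far apart. Cyp7a1 was 1.69 on H2 and 3.44 on H4, 3.36-fold higher on H4, whereas the 5-month arrays had 1.89 and 2.04. Nr0b2 was 2.60 on H2 and 0.73 on H4, 3.65-fold higher on H2, against 0.92 and 1.56 at 5 months. Cyp8b1 was 4.27 on H2 and 3.22 on H4, 2.07-fold higher on H2, with 3.53 and 3.39 at 5 months.

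H2 thus had the higher Nr0b2 and Cyp8b1 and the lower Cyp7a1, and H4 the reverse. These 3 of the 10 genes differed by more than 1 on the log2 scale between H2 and H4, as did 15.1% of all genes, whereas between G1 and G3 0 of the 10 and 3.74% of all genes did. The differences of Cyp7a1 (-0.60, interval -2.28 to 1.07), Nr0b2 (-0.43, interval -2.30 to 1.43) and Cyp8b1 (-0.29, interval -1.38 to 0.81) between 5-month and primary hepatocytes were smaller than the spread between the primary arrays. Cyp7a1 depended on which primary array was used: without H2 it differed by -1.48 and was called lower at 5 months (adjusted p = 0.0306), and without H4 the difference was 0.27. Each of these fits holds 1 primary array, which is assumed to vary as G1 and G3 do, and without H2 the calls over all genes went from 110 to 1552.

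The groups overlapped for the remaining 3 genes. Cyp7b1 had 6.26 and 6.78 on H2 and H4 and 6.74 and 7.11 on G1 and G3 (difference 0.40, interval -0.38 to 1.19). Baat had 3.35 and 2.74 in primary and 2.69 and 2.83 in 5-month hepatocytes (difference -0.28, interval -1.05 to 0.49). Slco1b2 had 9.17 and 9.94 in primary and 10.02 and 9.84 in 5-month hepatocytes (difference 0.37, interval -0.51 to 1.26).

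The wider list behaved alike in count, with 0 of 38 genes called in either direction on slide 2 and 6 at an unadjusted p under 0.05 in limma. Over all genes 0.366% were called higher and 0.186% lower. The 6 genes are 15.8% of the 38, close to the 14.1% of all genes at that unadjusted limit. The genes below were named after their values were seen. Slc10a2, the apical sodium-dependent bile acid transporter best known from ileum and bile ducts, had a difference of -1.70 between 5-month and primary hepatocytes (interval -2.36 to -1.04, adjusted p = 0.104), Slco1a4, an organic anion transporter, of -1.53 (interval -2.28 to -0.77, adjusted p = 0.146), and Nr5a2 (LRH-1), an activator of Cyp7a1 and Cyp8b1 transcription, of -1.44 (interval -2.13 to -0.75, adjusted p = 0.135). For Abcb11 the difference was 0.86 (interval 0.23 to 1.49, adjusted p = 0.26) and for Cyp46a1, the cholesterol 24-hydroxylase, 0.80 (adjusted p = 0.301).

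The summed level of the 6 Kupffer cell markers was 96.2 and 90.7 on G1 and G3 against 21.8 and 45.8 on H2 and H4, while that of the 8 hepatocyte markers was 5453 and 6097 against 5070 and 5777. By limma 0 of the 6 Kupffer cell markers and 0 of the 8 hepatocyte markers were called between 5-month and primary hepatocytes. Over all genes 0.366% were called higher and 0.186% lower. The part of Kupffer cell RNA in the differences above was not tested. For the 6 bile duct markers the brightest probe was read before any filter. Krt19, Krt7 and Epcam were not well above background on any hepatocyte array, whereas Cftr was so on H2, H4, G1, G3 and B2, Sox9 on B1, H2, G1 and G3, and Spp1 on B1, B2, H2 and H4. The Sox9 probe that passed the filter was well above background on both B1 and B2. Of the 2 bile duct markers tested on slide 1, limma called Sox9 higher at 1 month than in Lin- cells (3.40, adjusted p = 0.0192). Spp1 was called lower (-6.71, adjusted p = 0.000959). Over all genes 28.8% were called higher and 26.5% lower. The summed level of the 6 markers was 19.5 and 24.4 on L3 and L4 and 2.18 and 0.77 on B1 and B2. On slide 2 it was 5.42 and 3.34 on H2 and H4 and 2.48 and 2.64 on G1 and G3.

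The shared probes placed all 4 groups on 1 scale for 9 genes, with group and slide not separable. All 9 were called higher in primary hepatocytes than in Lin- BM cells, where 29.3% of 9204 genes were called higher and 38.1% lower. All 9 were also called higher at 5 months than in Lin- BM cells, where 29.3% were called higher and 37.8% lower. Both comparisons used the same Lin- arrays. Of the 9 only Cyp7b1 was well above background on both Lin- arrays, so the others passed the filter only through hepatocyte arrays. The median fitted differences of the 9 genes were 9.42 for primary and 9.60 for 5-month hepatocytes, or 8.82 and 7.90 with the 5 genes that have only a bound set at it, against -0.29 and -0.30 over all genes, which became -0.05 and -0.10 when the 75th percentile was taken over all probes of each design.

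By its shared probe Slco1b2 was at least 13600-fold higher in primary and at least 18200-fold higher in 5-month hepatocytes than in Lin- BM cells. For Slc10a1 these bounds were 521-fold and 239-fold, for Cyp8b1 243-fold and 205-fold, for Baat 149-fold and 126-fold, and for Cyp7a1 107-fold and 72.5-fold. The 4 genes measured on at least 1 Lin- array rose by 8.82 and 8.09 (Cyp27a1), 9.16 and 9.60 (Cyp7b1), 12.72 and 12.89 (Slc27a5) and 6.19 and 5.80 (Nr0b2) on the log2 scale in primary and 5-month hepatocytes. All these rises had adjusted p of 0.000468 or less.

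**Figure D4:**
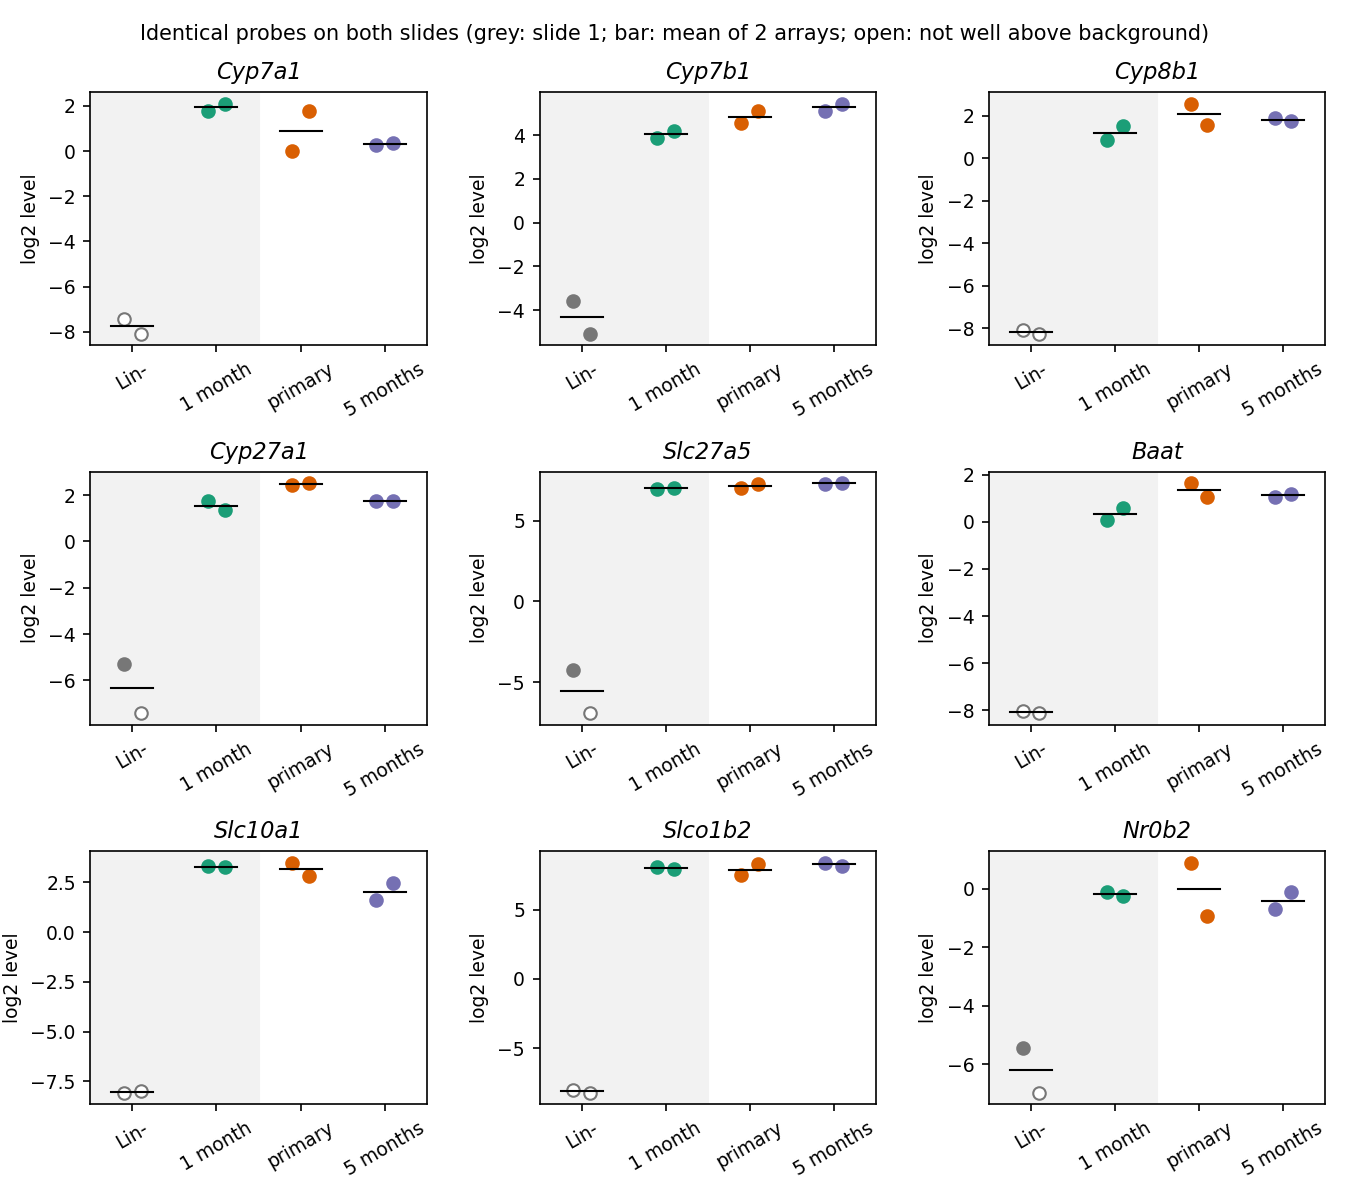
Level by the probe of identical sequence on both slides (y axis, log2 signal minus the 75th percentile over the shared probes) in Lin- BM cells, 1-month, primary and 5-month hepatocytes for 9 genes. Points are arrays, open where not well above background, bars are means of 2 arrays and the grey field marks slide 1. In each panel both Lin- arrays lie below all 6 hepatocyte arrays.

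Among the 3 hepatocyte groups, 0 of the 9 genes were called in 1-month against primary hepatocytes, where 11.6% of all genes were called higher and 5.11% lower, and 0 in 5 months against 1 month, where 5.82% were called higher and 11.2% lower. The split of all genes called depended on the scaling: 1064 higher and 470 lower in the first comparison became 745 and 748 with the 75th percentile over all probes of each design, with the median of all genes going from 0.17 to -0.09, and 536 and 1035 in the second became 827 and 744. At an unadjusted p under 0.05 limma gave 1 of 9 (Baat) in the first comparison, against 32.3% of all genes, and 4 of 9 (Baat, Cyp7a1, Cyp7b1 and Slc10a1) in the second, against 34.7%. No difference between neighbours in the order of the hepatocyte groups was thus called for any of the 9 genes, while each difference from Lin- BM cells was. With normexp background correction in place of the scanner's, 3 of 9 genes were called lower at 1 month than in primary hepatocytes. In that setting 1841 of all 9204 genes were called higher and 567 lower.

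The order of the group means differed between genes. Cyp7a1 was highest at 1 month (1.94 ± 0.23, SD, n = 2), followed by primary (0.88 ± 1.26) and 5-month hepatocytes (0.32 ± 0.07), and was 3.08-fold lower at 5 months than at 1 month, a difference that was not called (interval of the log2 difference -2.98 to -0.27, adjusted p = 0.0947). Slc10a1, by the printed probe, had the same order, with 3.28 ± 0.04, 3.16 ± 0.47 and 2.04 ± 0.58 (5 months minus 1 month -1.24, interval -2.09 to -0.40, adjusted p = 0.0566). By these probes the 5-month arrays lay below the 1-month arrays for both genes. The difference of Slc10a1 between 1-month and primary hepatocytes was 0.12, or -0.15 with the 75th percentile over all probes. The brighter Slc10a1 probe, by which 5-month lay above primary hepatocytes, is not on slide 1. The place of 5-month hepatocytes in the order of Slc10a1 thus holds for the printed probe only.

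Cyp7b1 and Baat were lowest at 1 month among the hepatocytes. Cyp7b1 stood at 4.03 ± 0.21 at 1 month, 4.83 ± 0.39 in primary and 5.28 ± 0.23 in 5-month hepatocytes (5 months minus 1 month 1.25, interval 0.05 to 2.44, adjusted p = 0.132). Baat stood at 0.33 ± 0.35, 1.36 ± 0.41 and 1.12 ± 0.07, and its difference of -1.02 between 1 month and primary hepatocytes had an adjusted p of 0.0572 (interval -1.72 to -0.33), which became 0.0293 with the 75th percentile over all probes of each design. Cyp8b1 (1.19 ± 0.46, 2.06 ± 0.72 and 1.81 ± 0.13) and Cyp27a1 (1.54 ± 0.28, 2.47 ± 0.07 and 1.74 ± 0.0045) had their lowest mean at 1 month as well. Hepatocyte markers moved in the same direction: albumin (Alb), Apoa1 and Apob differed by -0.78, -0.85 and -1.03 between 1-month and primary hepatocytes, with 0 of 4 markers called by limma, and 3 of 4, these same genes, were called higher at 5 months than at 1 month, by 1.04, 1.02 and 1.17. Of all genes, 5.82% were called higher at 5 months than at 1 month. The differences of Baat, Cyp27a1, Cyp8b1 and Cyp7b1 between 1-month and primary hepatocytes were -1.02, -0.93, -0.87 and -0.80, and the part of hepatocyte content in them was not tested.

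Nr0b2, Slco1b2 and Slc27a5 varied least between the hepatocyte groups. Nr0b2 means were -0.19 ± 0.09 at 1 month, -0.02 ± 1.30 in primary and -0.41 ± 0.42 in 5-month hepatocytes, a range narrower than the gap between H2 and H4. Slco1b2 had levels of 8.10 and 7.92 on B1 and B2, 7.47 and 8.27 on H2 and H4 and 8.40 and 8.17 on G1 and G3. Slc27a5 lay between 6.98 and 7.34 on all 6 hepatocyte arrays.

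Of the wider list, 23 genes had a shared probe that passed the filter. In primary hepatocytes 19 were called higher than in Lin- BM cells and 2 lower (Vdr and Abcc4), and at 5 months again 19 and 2. Over all genes 29.3% were called higher and 38.1% lower in primary hepatocytes, and 29.3% and 37.8% at 5 months. Foxo1 and Cyp46a1 were the 2 that were not called in either comparison. In 1-month against primary hepatocytes 2 were called higher, Cyp46a1 (2.36 ± 0.35, adjusted p = 0.00871), and Abcc4 (1.87 ± 0.23, adjusted p = 0.00499), and 1 lower, Slc10a2 (-1.95 ± 0.26, adjusted p = 0.00617). These shares of the 23, 8.70% higher and 4.35% lower, were no larger than the 11.6% and 5.11% of all genes.

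Slc10a2 levels by this probe were 1.09 and 0.74 at 1 month, 2.63 and 3.10 in primary and 1.26 and 1.16 in 5-month hepatocytes. Donor-derived cells of both time points thus lay below primary hepatocytes for this transporter, which within slide 2 was not called.

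The genes whose levels over the 8 arrays were most like those of each of the 9 were looked up by Pearson's r over 9203 others. Baat was the most similar gene to Cyp8b1 and Cyp8b1 to Baat (r = 0.9993 over 8 arrays). Cyp7a1 was most like Klhl2, Fgf21 and Rmdn2 (r = 0.9971, 0.9955 and 0.9952), Nr0b2 most like Nicn1, Thtpa and Rassf6 (0.998, 0.9967 and 0.9958), and Slc10a1 most like Prr16, Plekhb1 and Ehhadh (0.9987, 0.9982 and 0.9981). The points share the gap between Lin- cells and hepatocytes, and between 751 and 1132 genes had r above 0.95 with any one of the 9, so these values describe the arrays and single out no gene.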

How the data were processed

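Background-subtracted spot intensities (gProcessedSignal) of the 8 arrays were deposited by the authors as the output of Agilent Feature Extraction 11.5.1.1, with a well-above-background flag for each spot, and the authors also deposited log2 values shifted in GeneSpring GX to the 75th percentile of each array. For at least 99.83% of probes the 2 sets of log2 values lay within 0.02 of an offset that was the same over the array. Control and outlier spots were left out, spots of a probe were averaged, intensities were taken to log2 and the 75th percentile of each array was subtracted. A probe had to be well above background on every array of 1 group or more, and the brightest such probe stood for its gene. Groups were compared in limma 3.58.1 (R 4.3.3), within each slide or, for identical probes, over 8 arrays, and p was adjusted by Benjamini-Hochberg across the whole table. As the pools are the replicates, p-values measure the spread between them, which may be technical in part. The methods name a Student test with a limit of 0.6 on the log2 scale, which was run as an alternative. A bound on a fold takes, on each dim array, the higher of the lowest signal among probes well above background and the probe's own signal. The number of arrays limits the precision. The scripts were tested on simulated data. The 10 genes, the wider list and the markers were chosen with earlier results of these data known. Named from the wider list were the 4 largest called rises and falls within each slide, genes uncalled where 5 or fewer, and the 3 genes most alike by r. Figures were drawn with matplotlib 3.10.9.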

Additional observations from a re-analysis of the deposited data

Results flagged for a closer look

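A set of 4 genes of the wider list differed between 5-month and 1-month hepatocytes by limma on the shared probes, a comparison in which group and slide cannot be told apart. Of 23 genes tested 1 was called higher and 3 lower, 4.35% and 13%, close to the 5.82% and 11.2% of all genes. Abcc2, the canalicular pump for conjugated anions, was higher at 5 months by 1.55 (adjusted p = 0.0366), with levels of 3.29 and 3.15 against 1.67 and 1.67. Abcc4, a basolateral export pump, differed by -1.63 (adjusted p = 0.00819), and its levels on the slide 1 arrays, 0.81 and 1.14 in Lin- BM cells and 0.54 and 0.82 at 1 month, all lay above those on the slide 2 arrays, -1.26 and -1.12 in primary and -0.92 and -0.99 in 5-month hepatocytes. Cyp46a1 differed by -1.52 (adjusted p = 0.0334), with -2.74 and -2.34 at 5 months against -1.46 and -0.59 at 1 month. Slco1a4 differed by -1.36 (adjusted p = 0.0228), with -0.36 and -0.52 against 1.02 and 0.82. Without G1, G3 or B2 0 of these calls were made. Groups of 2 arrays were too small for a test of single outlying arrays.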

How the results depend on the processing

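No paired analysis was possible because the groups share fewer than 2 replicate numbers. The 10 calls at 1 month and the 9 at each across-slide comparison with Lin- BM cells kept their direction in all settings that tested them. Requiring a probe well above background on every array left 1 gene to test against Lin- BM cells, Cyp7b1, so 1 was called in each of those 3 comparisons. The methods' t-test after adjustment called 7, 7 and 8 for 1-month, primary and 5-month hepatocytes, losing Cyp27a1, Nr0b2 and Slc27a5, then Cyp27a1 and Nr0b2, then Nr0b2.

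The counts of 0 changed more. In 5 months against primary hepatocytes the methods' unadjusted t-test called 2 lower and leaving out single arrays gave 0 to 1 (Cyp7a1, without H2). In 1 month against primary hepatocytes normexp gave 3, and the 75th percentile over all probes, the authors' values, the unadjusted t-test, no filter and the strict filter gave 1 each; leaving out arrays gave 0 to 1 (Cyp7a1, without H4). In 5 months against 1 month normexp and the unadjusted t-test gave 2 and the strict filter 1. The calls over all genes moved with several of these settings too. In 1 month against primary hepatocytes normexp called 1841 higher and 567 lower of 9204, and no filter 3420 and 615 of 13218. In 5 months against 1 month normexp called 703 and 1975 of 9204, and the unadjusted t-test 807 and 1466. In 5 months against primary hepatocytes the unadjusted t-test called 747 and 616 of 19929.

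For the wider list, 35 calls at 1 month against Lin- BM cells became 21 of 23 with identical probes and 22 of 24 with the strict filter. The 0 calls in 5 months against primary hepatocytes became 1 with identical probes and 4 with the unadjusted t-test, and 0 to 5 without single arrays (5 without H2, 4 without H4). The 3 calls in 1 month against primary hepatocytes became 7 with normexp and 0 with the adjusted t-test, and the 4 in 5 months against 1 month became 0 with the adjusted t-test and 0 to 2 without single arrays.

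Directions of differences that were not called turned as follows. In 5 months against primary hepatocytes Slc10a1 became -1.12 with identical probes, -0.39 with the mean of its probes and -1.17 with its other probe, the last chosen after seeing the data. Without H2 Baat became 0.0261, Cyp8b1 0.24, Nr0b2 0.50 and Slco1b2 -0.0085, and without H4 Cyp7a1 0.27; over all arrays left out in turn their ranges were -0.59 to 0.03, -0.81 to 0.24, -1.37 to 0.50, -0.01 to 0.76 and -1.48 to 0.27. In 1 month against primary hepatocytes Slc10a1 became -0.15 with the 75th percentile over all probes and with the authors' values and -0.11 with normexp, Slco1b2 -0.13 and -0.14 with the first 2, and Slc27a5 0.0171 with quantile normalization; without single arrays Slc10a1 ran from -0.21 to 0.45, Slco1b2 from -0.26 to 0.54 and Nr0b2 from -1.09 to 0.74. In 5 months against 1 month Nr0b2 became 0.0086 with the 75th percentile over all probes and 0.0141 with the authors' values, and ran from -0.51 to 0.08 (0.0783 without G1) in fits without single arrays. The causes were not tested.

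The number of all genes called in 5 months against primary hepatocytes, 110, ranged from 0 without G1 or G3 to 1552 without H2 and 1640 without H4, and was 0 with the adjusted t-test, 1363 with the unadjusted one, 38 with no filter and 47 with the strict filter. In 1 month against Lin- BM cells 15777 became 5772 with identical probes, 4566 with the adjusted t-test, 26463 with no filter and 9811 without B2, and normexp moved the split from 8225 higher and 7552 lower to 10189 and 6049. In 1 month against primary hepatocytes 1534 became 2 with the adjusted t-test, 4035 with no filter, 2408 with normexp, 997 with the strict filter and 534 to 1003 without single arrays, and in 5 months against 1 month 1571 became 14 with the adjusted t-test, 2678 with normexp and 308 to 751. Against Lin- BM cells the adjusted t-test took 6179 to 3333 at 5 months and 6207 to 2514 in primary hepatocytes.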
